A study of Homo sapiens with 6 samples.

Results

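The 10 genes described here are regulators and a surface marker of epithelial and mesenchymal identity: EPCAM, ESRP1, ESRP2, GRHL2 and OVOL2 on the epithelial side, and ZEB1, ZEB2, SNAI1, SNAI2 and TWIST1 on the mesenchymal side. They were chosen by gene symbol from a table of estimated counts for 30270 genes, and each of the 10 symbols matched 1 gene. The study compared HEK 293T cells, an immortalized human embryonic kidney line, with a TENT3A/B double knockout of that line to ask how loss of these enzymes changes the transcriptome. TENT3A and TENT3B are TUT4 and TUT7, which add uridines to RNA 3′ ends. The wild-type cells (WT) came from a repository and the knockout cells (ΔTUT4/7) had been made earlier by another group, and both were grown in the same medium with no treatment. Each group is 3 libraries of 1 line, named biological replicates with no word on separate cultures, so p-values measure the spread between these libraries, which may be technical. With 1 line per group, loss of the enzymes and any other difference between the 2 lines cannot be told apart.

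Epithelial cells are held to their neighbours by E-cadherin, tight junctions and desmosomes, and they can give these up and become motile in an epithelial-mesenchymal transition. ZEB1, ZEB2, SNAI1 and SNAI2 are zinc finger repressors that bind E-box sequences in the promoters of E-cadherin (CDH1) and other junction genes, and TWIST1 is a basic helix-loop-helix factor that acts with them. GRHL2 and OVOL2 oppose them, in part by repressing ZEB1, while ESRP1 and ESRP2 direct the epithelial pattern of splicing and EPCAM is an adhesion protein of the epithelial surface. In bulk RNA, fewer cells of a type and less RNA per cell cannot be told apart.

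The knocked-out genes were examined first. TUT7 had 60.4, 62.6 and 64.7 CPM (counts in every 1e+06 of the scaled library) in WT replicates 1, 2 and 3 and 27.2, 25.1 and 26.4 CPM in the libraries labelled ΔTUT4/7 (log2 fold change -1.25 ± 0.06, SE). TUT4 went against the label, with 212, 216 and 206 CPM in WT and 881, 920 and 916 CPM in the libraries labelled ΔTUT4/7 (log2 fold change 2.10 ± 0.04). Every direction given here rests on the labels. Library totals ran from 18757228 to 33148937 counts, log2 CPM of libraries of 1 group correlated across genes with r between 0.986 and 0.989 (genes are not independent replicates), and no pair of libraries agreed within sampling noise. Of kidney markers, LHX1, PAX2, WT1, SIX2 and EYA1 were present in all 6 libraries, and PAX8, CDH16, UMOD and NPHS1 were not analysed here.

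Of the 10 regulators, 8 passed the filter on low counts (a largest count above 12) and 2, ESRP1 and GRHL2, did not. In edgeR's quasi-likelihood test at a Benjamini-Hochberg FDR under 0.05, 7 of the 8 were called, ZEB1 and ZEB2 higher and EPCAM, ESRP2, OVOL2, SNAI2 and TWIST1 lower in the libraries labelled ΔTUT4/7. The call of ZEB2 did not hold in 9 of 14 alternative analyses, among them library size alone, upper-quartile scaling and DESeq2, where 6 regulators were called, 1 of them higher. This has to be read against the whole table, where 57.7% of the 23952 tested genes were called, 28.6% higher and 29.0% lower (6855 and 6958 genes, but 5548 and 8272 with libraries scaled by size alone). At a change of 2-fold or more as well, EPCAM, ESRP2 and OVOL2 were called, all lower, where the table had 18.3% of genes in either direction, 12.4% lower and 5.90% higher. EPCAM and OVOL2 passed the filter only through their WT counts and could only be called lower, so nothing is read from this count or from the median, which was on the log2 scale -0.885 for the 8 regulators, also with EPCAM at the bound given below, and -0.0203 for all tested genes. The epithelial genes were the less abundant group: EPCAM, ESRP1, ESRP2, GRHL2 and OVOL2 together reached 10.7 to 12.7 CPM per WT library and 1.91 to 3.88 CPM per library labelled ΔTUT4/7. The 5 mesenchymal factors together reached 247 to 253 CPM in WT and 225 to 237 CPM in the libraries labelled ΔTUT4/7. The plot of levels by library shows all 10 genes.

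**Figure D1:**
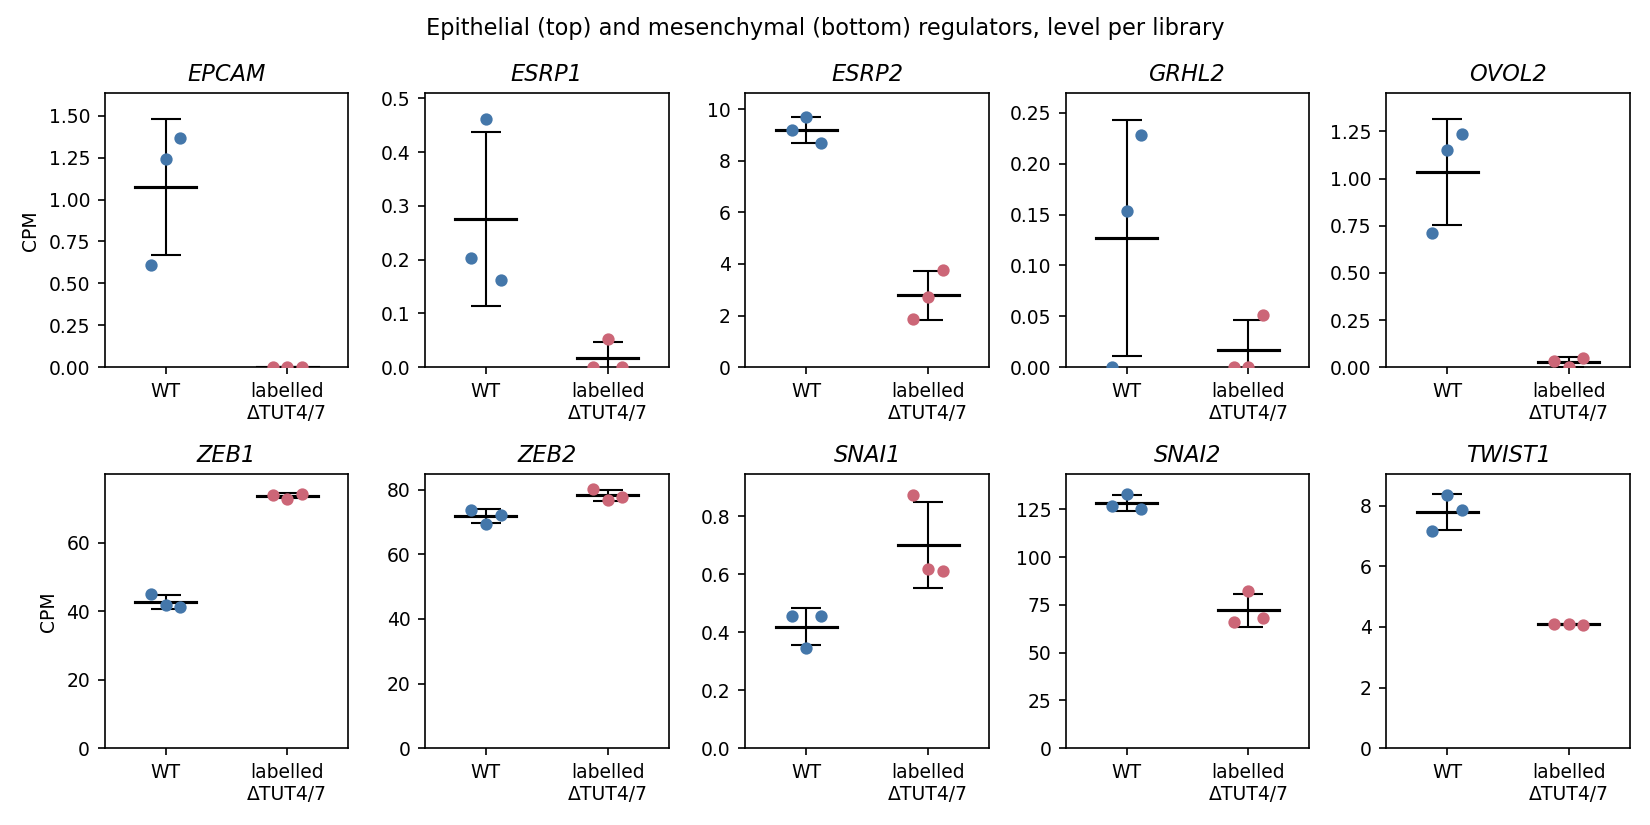
CPM of each of the 10 regulators in each library (points; WT in blue, libraries labelled ΔTUT4/7 in red) with the mean and SD of 3 libraries (black); each panel has its own vertical axis from 0. EPCAM and OVOL2 sit at or near 0 in the libraries labelled ΔTUT4/7, ESRP2 falls from about 9.19 to 2.79 CPM, ZEB1 is higher in all 3, and SNAI2 and TWIST1 are lower in all 3.

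EPCAM (chromosome 2, 47345158 to 47387601, plus strand, hg38) is the surface marker by which carcinoma cells are commonly captured. It had 12, 32 and 42 counts in WT replicates 1, 2 and 3, which is 0.610, 1.24 and 1.37 CPM. No count was found in any of the 3 libraries labelled ΔTUT4/7. Against a floor of 3 counts over that group, EPCAM was at least 26.7-fold lower. The edgeR test of the fitted change, not of this floor, gave an adjusted p of 5.62e-07. EPCAM passed the filter only through its WT counts and could only be called lower. Floors and the count intervals below cover counting error only, and the fitted fold change of such a gene is no bound. EPCAM was thus weakly counted in WT and not detectable at this depth in the other group.

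ESRP2 (chromosome 16, 68229033 to 68238102, minus strand), an epithelial splicing regulator, carried most of the counts of the epithelial group. It had 9.20, 9.70 and 8.68 CPM in WT and 1.88, 2.71 and 3.77 CPM in the libraries labelled ΔTUT4/7. The groups were well separated, and the spread was wider in the second group, where replicate 3 held the highest level. The means were 9.19 ± 0.512 and 2.79 ± 0.949 CPM (SD, n = 3), which is 3.30-fold lower, a log2 change of -1.76 ± 0.19 (SE; adjusted p = 2.58e-07).

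Its paralog ESRP1 (chromosome 8, 94641074 to 94707466, plus strand) was close to the limit of detection in both lines. It had 4, 12 and 5 counts in WT and 0, 1 and 0 counts in the libraries labelled ΔTUT4/7. The ratio of WT to ΔTUT4/7, allowing for library size, was 19.5 with a 95% exact counting interval of 3.14 to 808. ESRP1 was below the filter and was not tested in the main analysis. Fitted with no count filter, it had a log2 fold change of -3.86 ± 1.09 and an adjusted p of 0.00489.

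OVOL2 (chromosome 20, 17956979 to 18059188, minus strand), a zinc finger repressor that maintains epithelial identity, had 14, 30 and 38 counts in WT and 1, 0 and 1 counts in the libraries labelled ΔTUT4/7. The mean level went from 1.03 ± 0.282 to 0.0274 ± 0.0257 CPM (SD, n = 3). Every WT library stood above every library labelled ΔTUT4/7, as held for 31.8% of all tested genes. OVOL2 passed the filter only through its WT counts and could only be called lower. The ratio of WT to ΔTUT4/7 was 38.1 with a counting interval of 10.2 to 320, and the log2 change was -4.99 ± 0.64 (adjusted p = 7.20e-07).

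GRHL2 (chromosome 8, 101492439 to 101669726, plus strand), a grainyhead factor that activates CDH1 and other junction genes, was hardly counted at all. It had 0, 4 and 7 counts in WT and 0, 0 and 1 in the libraries labelled ΔTUT4/7, and the groups overlapped at 0. The ratio was 10.2 with a counting interval of 1.49 to 441. With no count filter the log2 fold change was -2.88 ± 1.33 at an adjusted p of 0.0808, so no difference was established for GRHL2 at this depth. EPCAM, OVOL2, ESRP1 and GRHL2 were all at or near 0 in the libraries labelled ΔTUT4/7, but only EPCAM and OVOL2 had enough counts in WT to be tested.

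ZEB1 (chromosome 10, 31318495 to 31529814, plus strand) was the mesenchymal factor that increased most among those called. It had 45.0, 41.8 and 41.2 CPM in WT and 73.8, 72.8 and 74.3 CPM in the libraries labelled ΔTUT4/7. The 3 libraries of each group lay close together and far from the other group. The means were 42.7 ± 2.04 and 73.6 ± 0.752 CPM (SD, n = 3), which is 1.73-fold higher, a log2 change of 0.79 ± 0.06 (SE; adjusted p = 7.44e-11).

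ZEB1-AS1 (chromosome 10, 31206278 to 31320447, minus strand) is a long noncoding RNA that overlaps the start of ZEB1 by 1953 bases, and it moved the other way. It had 8.99, 9.14 and 6.84 CPM in WT and 4.64, 3.87 and 4.28 CPM in the libraries labelled ΔTUT4/7, a log2 change of -0.95 ± 0.15 (adjusted p = 8.89e-06). The strand used for counting is not given in the sources used here, so reads in the overlap cannot be assigned to 1 of the 2 genes by strand. The ratio of ZEB1 to ZEB1-AS1 was 5.01, 4.58 and 6.03 in WT and 15.9, 18.8 and 17.3 in the libraries labelled ΔTUT4/7 (exact two-sided permutation p = 0.1, the smallest that 3 against 3 allows).

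The sequence upstream of a ZEB1 start is shown next, and its part in the changes of the 2 transcripts was not tested. It is the 250 bases before the first of the RefSeq starts given for ZEB1 (GRCh38.p14, plus strand, chr10:31318167-31318416). This stretch lies inside ZEB1-AS1 but ahead of the ZEB1 interval given above, so it is not part of the overlap of the 2 genes. Capitals mark the single match to CACCTG or its reverse complement CAGGTG, the E-box form bound by ZEB and Snail factors, which begins 57 bases before that start. Of the 7 windows given for ZEB1, this one held 1 match, another held 2 and the other 5 held none, and the window of ZEB2 held none.
ZEB1 upstream region: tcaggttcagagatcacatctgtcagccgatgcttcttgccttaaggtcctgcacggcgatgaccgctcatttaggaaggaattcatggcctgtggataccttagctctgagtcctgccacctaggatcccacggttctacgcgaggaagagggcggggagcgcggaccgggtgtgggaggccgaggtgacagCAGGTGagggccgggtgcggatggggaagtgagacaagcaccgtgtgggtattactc
Of 35116 RefSeq windows of this length, 6143 (17.5%) hold the motif on either strand, so a match is a common feature and describes only these letters. Upstream windows were matched for ZEB1 and ZEB2 alone among the 10 genes.

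ZEB2 (chromosome 2, 144364364 to 144521057, minus strand), the paralog of ZEB1 with the same DNA-binding preference, hardly differed. It had 73.6, 69.3 and 72.3 CPM in WT and 80.1, 76.8 and 77.7 CPM in the libraries labelled ΔTUT4/7. The groups did not overlap, as held for 62.8% of all tested genes, and the gap between them was small. The log2 change was 0.13 ± 0.05 (adjusted p = 0.0391), and this call was lost in 9 of 14 alternative analyses, where the adjusted p reached 0.873 when libraries were scaled by total count alone. Without WT replicate 2, WT replicate 3, ΔTUT4/7 replicate 1 or ΔTUT4/7 replicate 3, the adjusted p was 0.127, 0.0619, 0.149 and 0.0824. ZEB2 is therefore given as a value and not as an increase. The ratio of ZEB1 to ZEB2, which does not depend on library scaling, was 0.612, 0.603 and 0.570 in WT and 0.921, 0.948 and 0.956 in the libraries labelled ΔTUT4/7 (exact two-sided permutation p = 0.1, the smallest possible), higher in each library of the second group than in any of the first.

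SNAI2 (chromosome 8, 48917598 to 48921740, minus strand), which encodes Slug, was the most abundant of the 10 genes in WT and fell. It had 127, 133 and 125 CPM in WT and 66.3, 82.3 and 68.2 CPM in the libraries labelled ΔTUT4/7. Replicate 2 of the second group stood above the other 2, and all 3 lay below WT. The means were 128 ± 4.05 and 72.3 ± 8.73 CPM (SD, n = 3), a log2 change of -0.83 ± 0.07 (SE; adjusted p = 8.29e-08). ZEB1 and SNAI2 changed places in rank of CPM in 2 of 3 libraries: the ratio of ZEB1 to SNAI2 was 0.355, 0.314 and 0.329 in WT and 1.11, 0.885 and 1.09 in the libraries labelled ΔTUT4/7 (exact two-sided permutation p = 0.1).

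SNAI1 (chromosome 20, 49982980 to 49988886, plus strand), which encodes Snail, was rare in both lines. It had 9, 9 and 14 counts in WT and 28, 12 and 12 counts in the libraries labelled ΔTUT4/7, or 0.458, 0.346 and 0.456 against 0.873, 0.618 and 0.612 CPM. The groups did not overlap, as held for 62.8% of all tested genes (31.0% with the second group higher and 31.8% with it lower), and the log2 fold change of 0.76 ± 0.39 had an adjusted p of 0.104. A difference of SNAI1 was not established at this depth.

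TWIST1 (chromosome 7, 19020991 to 19117636, minus strand) had 7.18, 8.36 and 7.85 CPM in WT and 4.08, 4.11 and 4.05 CPM in the libraries labelled ΔTUT4/7. The second group varied little and lay wholly below the first. The log2 change was -0.94 ± 0.13 (adjusted p = 3.12e-06). The ratio of SNAI2 to TWIST1 was 17.7, 15.9 and 16.0 in WT and 16.2, 20.0 and 16.9 in the libraries labelled ΔTUT4/7, a log2 difference of 0.0944 with an exact two-sided permutation p of 0.5. The antisense lncRNA AC003986.2 within the TWIST1 interval had 1.33 ± 0.296 and 0.723 ± 0.264 CPM (SD, n = 3), and its call at an adjusted p of 0.0314 was lost in 6 alternatives, among them those without WT replicate 1 or 2 (0.0542 and 0.148) and without ΔTUT4/7 replicate 2 or 3 (0.131 and 0.0693).

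Levels of different genes were compared per length, as CPM per kilobase of annotated exon (mean of 3 libraries). In WT the order was SNAI2 at 39.1, ZEB1 at 4.93, TWIST1 at 3.90, ZEB2 at 2.74 and ESRP2 at 1.77 CPM per kilobase, and the other 5 genes were below 0.5. In the libraries labelled ΔTUT4/7 SNAI2 still came first at 22 CPM per kilobase, followed by ZEB1 at 8.51, ZEB2 at 2.99, TWIST1 at 2.04 and ESRP2 at 0.537. These places rest on the exon lengths, which take every annotated exon and were 26151 bases for ZEB2 and 8650 for ZEB1; by CPM alone, ZEB2 stood above ZEB1 in both groups (71.7 and 42.7 in WT, 78.2 and 73.6 in the other). TWIST1 is annotated over a long interval in the table, so its exon length is uncertain too.

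Other genes of the table overlap the 10 regulators, and 11 of 15 such genes could be tested. Of these, 3 were higher, 4 lower and 4 not called, where 57.7% of all tested genes were called. SNX5 (log2 fold change 0.37 ± 0.05) and MGME1 (-0.26 ± 0.05) overlap OVOL2 and are far more abundant than it, at 248 and 85.7 CPM in WT. SNORD17 lies within both OVOL2 and SNX5 on the same strand, so it cannot be assigned to OVOL2 alone. It was lower (-1.02 ± 0.20), with uneven WT levels of 14.0, 15.4 and 23.5 CPM. NFATC3, whose end overlaps the end of ESRP2 by 227 bases, was higher (0.38 ± 0.05). AL117340.1, opposite ZEB1, was higher (1.16 ± 0.36), while SPTLC1P1 in ZEB1 (0.70 ± 0.48), AC020978.5 beside ESRP2 (-0.51 ± 0.36) and AC009951.4 within ZEB2 (-0.08 ± 0.20) were not called. The fall of ESRP2 was larger than the change of either gene that overlaps it and was tested.

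Each regulator was also set beside its chromosomal neighbours, that is expressed genes (mean count of 50 or more) within 5 Mb. The 37 neighbours of EPCAM and the 39 of OVOL2 had medians of 0.0385 and 0.00931 on the log2 scale. EPCAM and OVOL2, with mean counts of 14.3 and 14.0, were below the count asked of their neighbours, so they were not ranked among them. ESRP2 was lower than all but 2 of 118 neighbours (median 0.143), which were SLC12A4 (-1.93) and the E-cadherin gene CDH1 (-6.03). ZEB1 lay in a stretch where 24 of 38 neighbours were called higher and 7 lower, against 28.6% and 29.0% of all tested genes. These neighbours had a median of 0.321, and 5 of them rose more than ZEB1. The log2 fold change of ZEB1 less that median was 0.47. SNAI2 was lower than all but 3 of 12 neighbours (median -0.0653), TWIST1 than all but 4 of 29 (median 0.0905), and ZEB2 lay in the middle of 11 (median -0.0824). The part of position in these results was not tested.

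**Figure D2:**
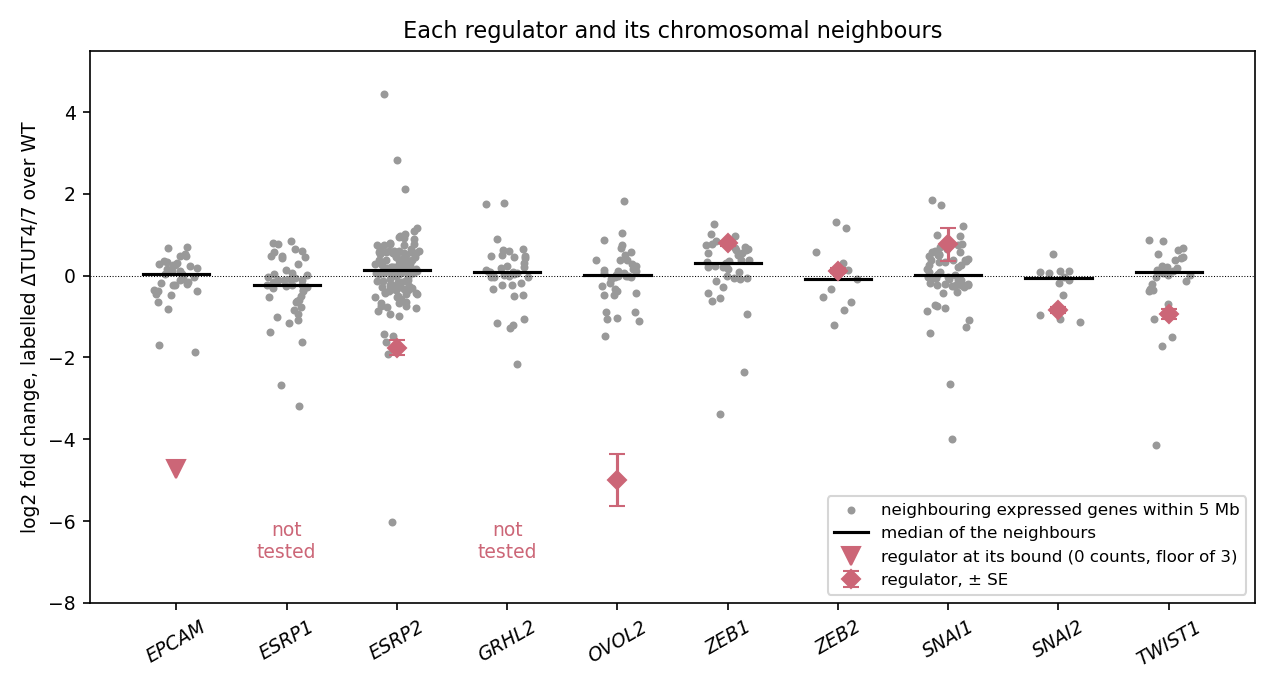
Log2 fold change (libraries labelled ΔTUT4/7 over WT) of each regulator (red diamonds with SE, and EPCAM as a triangle at its bound) and of expressed genes within 5 Mb (grey points, with their median as a black line); ESRP1 and GRHL2 were not tested. ESRP2 lies below all but 2 of its neighbours and 5 of the 38 neighbours of ZEB1 lie above it; EPCAM, OVOL2 and SNAI1 had fewer counts than were asked of neighbours and are not ranked among them.

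The other genes of this biology were taken from lists chosen for their known roles. Among epithelial junction and surface genes, 34 of the 41 with values could be tested, and 17 were lower (50%), 9 higher (26.5%) and 8 not called, with a median of -0.305; over all tested genes 29.0% were lower and 28.6% higher, against which the shares of each list can be read. CDH1 (E-cadherin, the adherens junction protein of epithelia) had 3.20, 4.15 and 4.46 CPM in WT and 0.125, 0 and 0 CPM in the libraries labelled ΔTUT4/7, a log2 change of -6.03 ± 0.44 (adjusted p = 2.52e-10). Its 4 counts in the second group were all in replicate 1, and the log2 change ran from -9.52 to -5.60 over the alternative analyses. CDH1 passed the filter only through its WT counts, so it could only be called lower. EPPK1, a plakin that links keratin filaments, had 7.99, 8.95 and 10.5 CPM in WT and 0.0936, 0.206 and 0.255 CPM in the other group (-5.72 ± 0.26). CDH1 and EPPK1 thus joined EPCAM and OVOL2 at or near 0. Chosen after its values were seen, MARVELD2 (tricellulin, at tight junctions between 3 cells) went from 26.4 ± 0.874 to 0.626 ± 0.119 CPM (SD, n = 3). The 41 genes with values together reached 1230 to 1260 CPM in WT and 1220 to 1250 CPM in the libraries labelled ΔTUT4/7. Some abundant genes, also chosen after their values were seen, were divided. DSP had means of 258 and 257 CPM (not called), DSG2 241 and 266, TJP1 100.7 and 171.5, and PERP 120 and 91.4 CPM.

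Other junction genes rose. PKP2, a desmosomal plaque protein, had 11.8, 12.1 and 12.1 CPM in WT and 35.4, 33.6 and 31.8 CPM in the libraries labelled ΔTUT4/7 (1.49 ± 0.08, adjusted p = 7.44e-13). OCLN, occludin of tight junctions, had 25.4, 26.1 and 23.9 CPM in WT and 57.3, 56.4 and 53.8 CPM in the other group (1.15 ± 0.06). Of the 34 tested genes of the list, 8 were lower and 3 higher by 2-fold or more, where the table had 12.4% and 5.90%. CDH1, EPPK1 and SPINT1, all among those lower, passed the filter only through their WT counts and could only be called lower, so nothing is read from this count. The same limit applies to any such gene of the lists below.

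Among other epithelial transcription factors, 14 could be tested, and 5 were lower (35.7%), 4 higher (28.6%) and 5 not called (median -0.235). GATA3, a factor of breast luminal cells and of the ureteric epithelium, fell from 21.1 ± 2.18 to 3.30 ± 0.0736 CPM (SD, n = 3), a log2 fold change of -2.67 ± 0.12. TFAP2C fell as well (-1.20 ± 0.14). FOXA1, a pioneer factor of endodermal and luminal epithelia, rose from 1.91 ± 0.346 to 9.03 ± 0.697 CPM (2.22 ± 0.16), and KLF5 rose (0.67 ± 0.07).

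The paralogs of the grainyhead and OVO-like factors did not move as a family. GRHL3 had 2.54, 1.69 and 1.21 CPM in WT and 0.468, 0.515 and 0.204 CPM in the libraries labelled ΔTUT4/7 (-2.12 ± 0.36, adjusted p = 3.52e-05). GRHL1 was higher (0.52 ± 0.15, adjusted p = 0.00567), and OVOL3 was not called (1.04 ± 0.54, adjusted p = 0.106). OVOL1 was not analysed here.

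Of the other mesenchymal transcription factors, 17 could be tested, and 8 were lower (47.1%), 6 higher (35.3%) and 3 not called (median -0.074). TWIST2, the paralog of TWIST1, rose from 2.85 ± 0.276 to 4.62 ± 0.544 CPM (SD, n = 3; 0.71 ± 0.17), opposite to TWIST1. SNAI3, the third Snail paralog, had 2.29, 1.92 and 1.86 CPM in WT and 1.40, 0.567 and 1.23 CPM in the other group (-0.87 ± 0.28, adjusted p = 0.0106), a call that was lost without ΔTUT4/7 replicate 2 (adjusted p = 0.0620). The homeobox gene MSX2 (-1.33 ± 0.07) and RUNX2, a factor of bone-forming cells (-1.17 ± 0.17), fell.

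The mesenchymal effector list held filament, matrix, contractile, cadherin, receptor, ligand and other surface genes. Of 38 tested, 19 were lower (50%), 7 higher (18.4%) and 12 not called (median -0.356). VIM, the intermediate filament protein vimentin, had 504, 512 and 469 CPM in WT and 1254, 1250 and 1243 CPM in the libraries labelled ΔTUT4/7 (1.33 ± 0.04, adjusted p = 5.22e-16). CDH2, N-cadherin, had 27.1, 26.7 and 25.5 CPM in WT and 58.2, 61.5 and 60.8 CPM in the other group (1.19 ± 0.06). The loss of CDH1 counts and the rise of CDH2 stood side by side in all 3 libraries.

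FN1 and ACTA2 went the other way. FN1, fibronectin, had 155, 167 and 174 CPM in WT and 27.3, 24.2 and 26.0 CPM in the libraries labelled ΔTUT4/7 (-2.67 ± 0.06, adjusted p = 1.55e-18). ACTA2, smooth muscle actin, had 30.7, 30.4 and 22.3 CPM in WT and 2.34, 2.17 and 2.07 CPM in the other group (-3.64 ± 0.14). Of the 38 tested genes of this list, 10 were lower and 2, VIM and CDH2, were higher by 2-fold or more. The table had 12.4% lower and 5.90% higher at that change. SPARC, among those lower, passed the filter only through its WT counts, so nothing is read from this count. Other matrix and contractile genes were divided, and those named here were chosen after their values were seen. COL1A1 (-1.45 ± 0.10), FBN1 (-2.13 ± 0.10) and CALD1 (-0.21 ± 0.05) fell as well. TAGLN (0.01 ± 0.15), TPM2 (0.13 ± 0.17) and COL6A1 (0.02 ± 0.06) were not called, and LOX (0.79 ± 0.08) and MMP14 (0.88 ± 0.24) rose. Over the whole list 19 genes were lower, 7 higher and 12 not called.

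**Figure D3:**
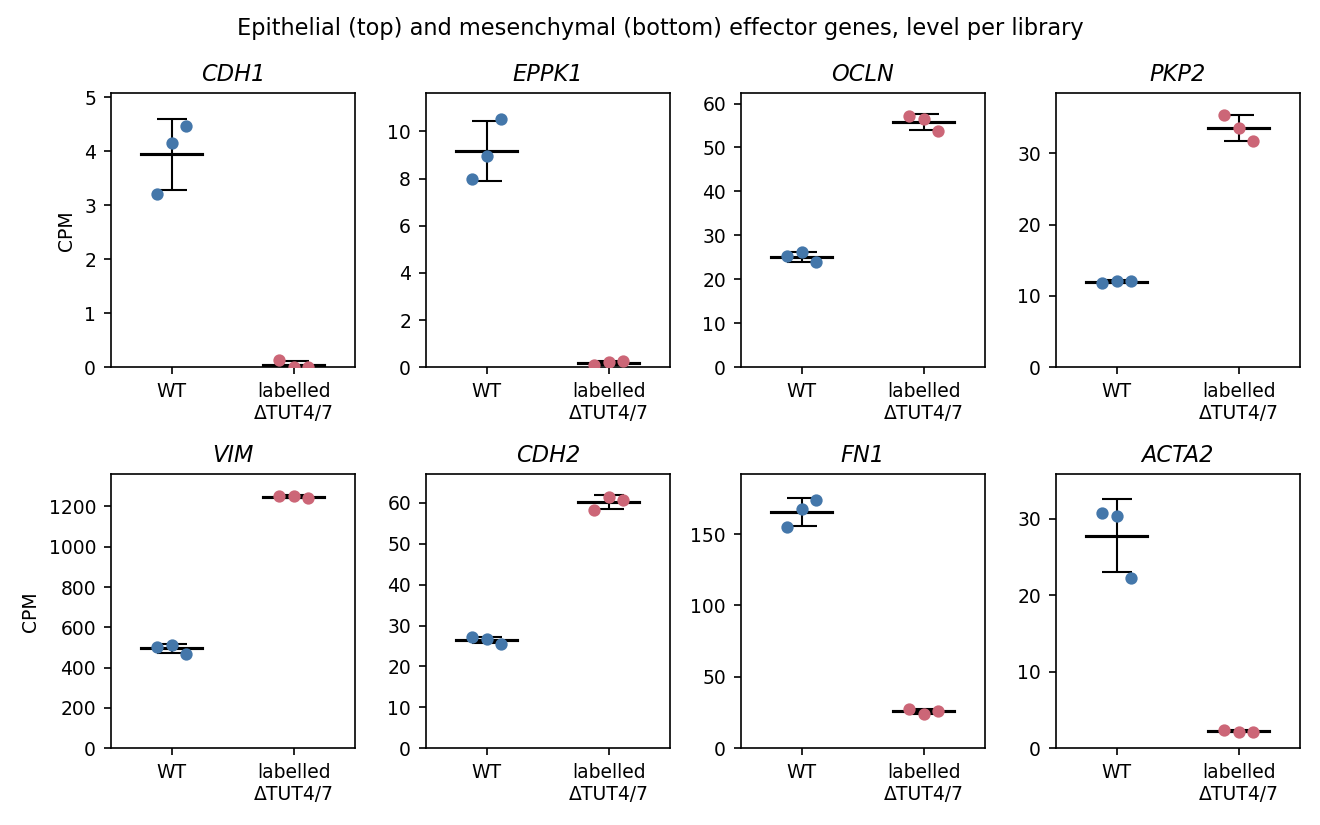
CPM of 4 epithelial (top) and 4 mesenchymal (bottom) effector genes in each library (points; WT in blue, libraries labelled ΔTUT4/7 in red) with the mean and SD of 3 libraries (black); each panel has its own vertical axis from 0. CDH1, EPPK1, FN1 and ACTA2 are lower and OCLN, PKP2, VIM and CDH2 higher in all 3 libraries labelled ΔTUT4/7, so neither row moves in 1 direction.

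TGF-β and BMP signals are inducers of Snail, ZEB and Twist factors, and all 43 listed genes of these pathways could be tested. Of these, 25 were lower (58.1%), 9 higher (20.9%) and 9 not called (median -0.32). The list mixes ligands and receptors with antagonists, so these counts do not give the strength of signalling. Among ligands, BMP2 had 90.1, 86.7 and 88.7 CPM in WT and 2.96, 2.88 and 3.01 CPM in the libraries labelled ΔTUT4/7 (-4.90 ± 0.08, adjusted p = 7.82e-21), whereas TGFB1 (0.86 ± 0.12) and BMP7 (0.85 ± 0.06) rose. NOG, the secreted BMP antagonist noggin, fell (-3.31 ± 0.21). None of the 43 rose by 2-fold or more and 7 fell by that much, where the table had 5.90% higher and 12.4% lower.

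Snail and ZEB proteins work through co-repressors and are kept short-lived by kinases and ubiquitin ligases. Of 33 genes listed as co-repressors or as regulators of the stability of these proteins, all tested, 20 were higher (60.6%), 9 lower (27.3%) and 4 not called (median 0.296). The list mixes genes of unlike effect on Snail and ZEB, so these counts do not give the strength of repression. WTIP (1.51 ± 0.18) and LIMD1 (1.20 ± 0.06) rose and their relative AJUBA fell (-1.09 ± 0.08); these 3 LIM proteins bind the repression domain of Snail. SIN3A, a scaffold of histone deacetylase complexes, fell (-0.68 ± 0.05).

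Of 16 genes that are splicing targets of ESRP1 and ESRP2 or other splicing factors of this transition, 8 were higher (50%), 5 lower (31.2%) and 3 not called (median 0.191). HNRNPM, an RNA-binding protein that competes with ESRP1, rose from 243 ± 3.76 to 452 ± 17.6 CPM (SD, n = 3; 0.89 ± 0.04), and the polarity gene SCRIB rose (0.72 ± 0.06). RBM47, an epithelial RNA-binding protein, fell from 4.58 ± 0.600 to 1.61 ± 0.120 CPM (-1.50 ± 0.19), and QKI fell (-0.68 ± 0.05). Gene counts cannot show which exons were used, so splicing of these targets was not examined. The plot of gene lists sets these groups beside the regulators.

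**Figure D4:**
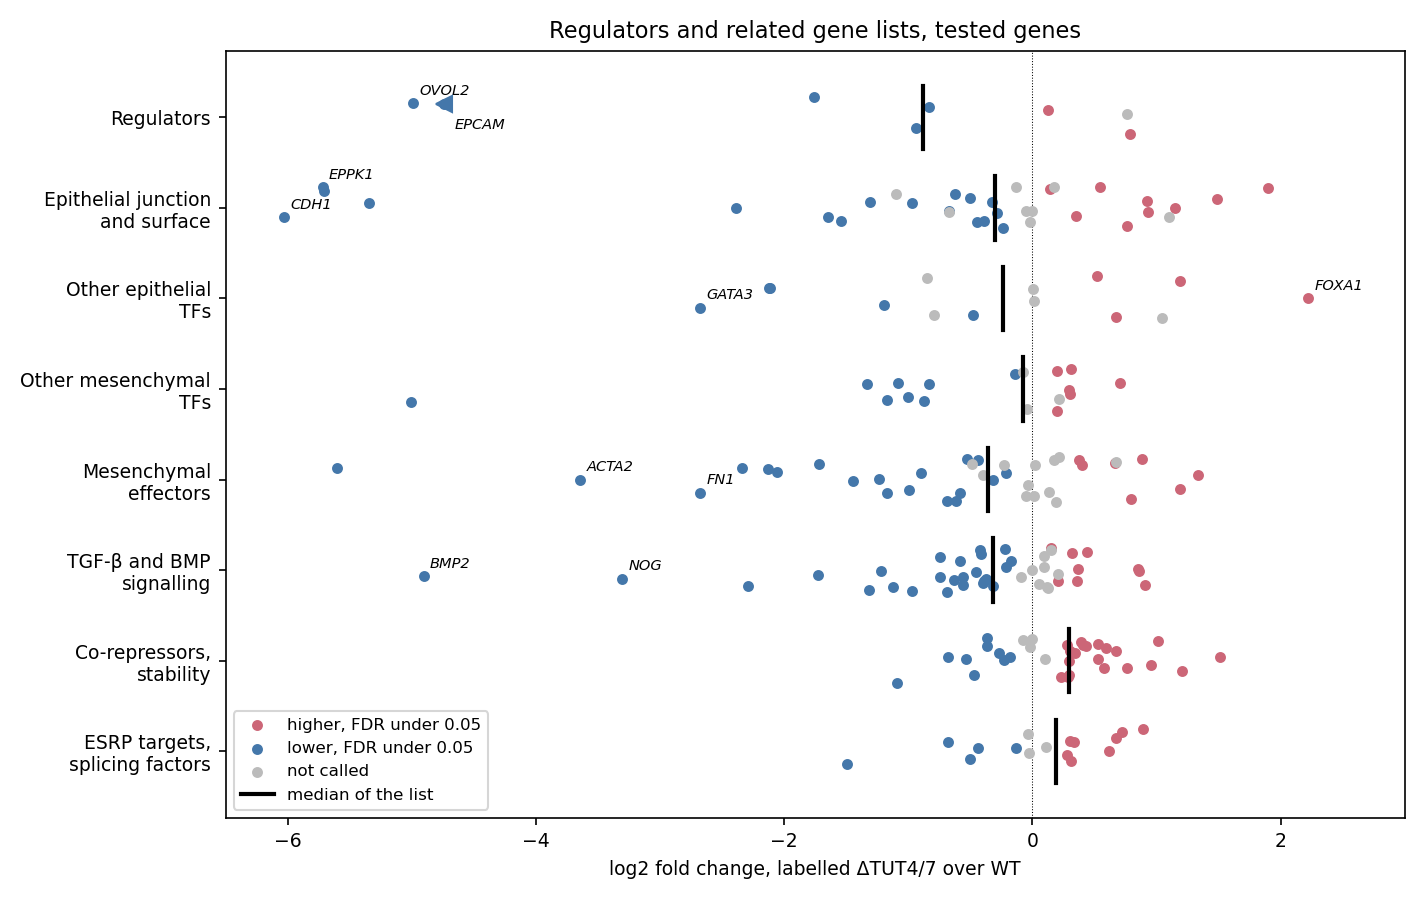
Log2 fold change (libraries labelled ΔTUT4/7 over WT) of every tested gene of the regulators and of 7 related lists (red, higher; blue, lower; grey, not called at FDR under 0.05; black line, median of the list; EPCAM as a triangle at its bound, with vertical scatter only to separate points). The regulators have a median of -0.885, the co-repressor and stability genes of 0.296, and all 8 rows hold genes on both sides of 0.

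Markers of other cell types were compared in the same libraries. Fibroblast markers with values, COL1A1 and PDGFRA, summed to 21.1 to 25.5 CPM in WT and 8.99 to 11 CPM in the libraries labelled ΔTUT4/7, and COL1A1, also among the mesenchymal effectors, fell while PDGFRA was not called; COL1A2, DCN and LUM were not analysed here. The 3 endothelial markers with values (KDR, PECAM1 and VWF) summed to 0.684 to 1.07 CPM in WT and 0.258 to 1.02 CPM in the other group. The 7 kidney markers with values summed to 49.8 to 57.0 CPM in WT and 97.1 to 105 CPM in the libraries labelled ΔTUT4/7, where 4 were higher and 2 lower, with LRP2 (megalin of the proximal tubule) going from 6.53 ± 1.23 to 41.2 ± 2.83 CPM (SD, n = 3). The basal keratinocyte markers KRT5 and KRT14 were not analysed here. The part of these markers in the changes of the regulators was not tested.

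By likeness of log2 CPM over the 6 libraries, with both groups included, HGH1, PTPN1 and TRAPPC10 were closest to ZEB1 (Pearson r of 0.9998, 0.9997 and 0.9997). ID4, QPCT and GUCY1B2 were closest to SNAI2 (0.9996, 0.9994 and 0.9988). The 6 points fall into the 2 groups, and these values are a description.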

How the data were processed

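Ribosomal RNA-depleted total RNA was sequenced in 3 libraries per group. Paired-end reads were aligned by the authors to the hg38 genome (STAR 2.7.3a), who quantified Ensembl genes in Partek Flow 10.0.22 with an expectation-maximisation model; the deposited values are estimated counts, which share reads between overlapping or similar genes. A second deposited table, of the authors' own comparison (p-values, FDR, ratios, fold changes and least-squares means), was not used. The smallest total of a gene in the count table was 10.

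Estimated counts were rounded, genes were kept where the largest count exceeded 12 (23952 genes; the others held 0.0962% of counts), and TMM-scaled libraries were compared with edgeR 4.0.16 under R 4.3.3 (glmQLFit, robust; glmQLFTest; group only). P-values were adjusted by Benjamini-Hochberg over the 23952 genes. Errors of log2 fold changes are SE, derived as the absolute change divided by the square root of the test's F statistic. The biological coefficient of variation was 6.445%. Exon lengths are GENCODE unions and upstream sequences RefSeq's. On simulated data with 22967 genes, 95.5% of 200 changed genes were recovered and 0.0922% of unchanged genes were called. This recovery was not split by count level, so it gives no rate for regulators with few counts (EPCAM, ESRP1, GRHL2, OVOL2 and SNAI1). The simulation also changed only 200 genes, whereas 57.7% of tested genes were called in the real table. Library totals ran from 18757228 to 33148937 counts.

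Genes were named by a rule: the 10 regulators, TUT4 and TUT7, the 2 largest increases and decreases per list with a mean count of 50 or more, listed paralogs and cadherins, overlapping transcripts, and the 3 genes most like each of the 2 regulators with the smallest p. Some genes of this rule and of the marker lists are not reported here. Members and lists were chosen with earlier results of these data known. Alternatives were other scalings, DESeq2 1.42.0, limma-voom (limma 3.58.1), other count filters, a replicate block, each library left out, and a narrower window of neighbours.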

Additional observations from a re-analysis of the deposited data

How the results depend on the processing

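Of 52 named genes, 45 kept their side of the FDR and their direction in all alternatives run for them; ZEB2, SNAI3 and AC003986.2 lost the call in some, OVOL3, AC020978.5 and SPTLC1P1 gained it in some, and AC009951.4, never called, reversed to 0.18 without WT replicate 2 and 0.02 without ΔTUT4/7 replicate 2. ZEB2 ran from 0.01 (library size alone) to 0.14. Scaling by library size alone or upper quartile moved the median of all genes by -0.114 and -0.1 (log2). Called regulators numbered 4 of 5 tested under a minimum mean count of 50, where ZEB2 was tested and not called (0.06, adjusted p = 0.281), and 3 at 2-fold or more; leaving out 1 library gave 6 to 7. The numbers of WT and ΔTUT4/7 replicates did not pair the libraries (correlation of same-numbered deviations 0.0519, -0.0115 and -0.0222), and with the replicate block 7 regulators were still called, of 13678 genes. Less the median of their neighbours, ESRP2, ZEB1 and TWIST1 had -1.90, 0.47 and -1.03. With 2 Mb on each side, the median of neighbours was 0.0683 for ESRP2 (85 genes), 0.233 for ZEB1 (17), 0.246 for ZEB2 (2), 0.101 for SNAI2 (6) and -0.265 for TWIST1 (6), the last 3 resting on too few genes to describe a neighbourhood; the cause was not tested. Leaving out each library in turn, it ran from -0.0267 to 0.0299 for EPCAM, -0.246 to -0.152 for ESRP1, -0.0231 to 0.0549 for OVOL2, 0.286 to 0.340 for ZEB1, -0.288 to 0.156 for ZEB2 and 0.0213 to 0.113 for TWIST1. With under 50 counts in a WT library, EPCAM, OVOL2, ESRP1, GRHL2 and SNAI1 are limited by depth.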
